A study of Mus musculus with 6 samples.

Results

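The comparison described here sets 2 arrays of CD8+ T cells pre-treated with epoxomicin against 2 arrays of cells pre-treated with DMSO, the vehicle, which are 4 of the 6 arrays of the series. They were taken by their titles. The CD8+ T cells came from spleens of 6-week-old C57BL/6 mice, were isolated with a commercial kit and were pre-treated with DMSO or with 0.5 µM epoxomicin. All were then cultured for 3 days on immobilized antibodies to CD3 and CD28, at 5 µg/ml, in medium with IL-2, so both groups were activated and the RNA was taken well after the pre-treatment. The remaining 2 arrays hold cells pre-treated with 1.0 µM E9, known here by its code name alone, for which the labels give proteasome activation. They enter the estimate of the spread and are quoted only where a gene or a list is set beside epoxomicin. Per the design text the duplicates are biological and the cells CD8+CD44+. Since no label ties an array to an animal, a pool or a culture, the p-values measure the spread between these arrays, which may be partly technical.

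Every named probe above background on at least 2 arrays was used: 19943 of 45281 probes, which stand for 13261 genes, each by its brightest probe. Intensities are on the scanner's linear scale after the authors' normalization, and background lies near 30.8. Values up to 34.7 were treated as background. Fold changes are on the log2 scale of background-corrected values, with the standard error of the fitted model (SE, 2 arrays per group), and a gene is said to have risen, fallen or changed if its limma p, adjusted over all 13261 genes, was under 0.05. The added offset shrinks the fold changes of dim genes. Quantile normalization gives every array the same set of values, so a change in total RNA per cell cannot be seen.

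The cells bore the T cell genes of their label. Cd8b1, a chain of the CD8 co-receptor, was at 4753 and 4900.5 with DMSO and 4947 and 4863 with epoxomicin, and Cd3e, a chain of the antigen receptor complex, at 1602 and 1659.9 with DMSO and 1936 and 1896 with epoxomicin. The Cd8a probe was barely above background on these 4 arrays, at 38.8 and 36.6 with DMSO and 39.2 and 37 with epoxomicin, and that of Cd4 lay about the limit, at 34.6 and 32.2 with DMSO and 35.3 and 36.1 with epoxomicin. A Foxp3 probe, for a factor of regulatory T cells, read 315 and 311 with DMSO and 311 and 317 with epoxomicin, while its other probes read at or near background. The 7 measured CD8+ T cell markers summed to 11334 and 11699 with DMSO and to 13145 and 12970 with epoxomicin, and 0 of them passed the test. All 7 had fold changes above 0, with a median of 0.23, and 5 were higher on both epoxomicin arrays, as were 21.3% of all genes. An unadjusted limma p under 0.05 was seen in 5 of the 7 and in 1501 of all 13261 genes. Markers of neutrophils, NK cells, myeloid cells, red cells and platelets that were measured lay at or near background on these 4 arrays, apart from Siglech at 88.3 and 67.4 with DMSO and 76 and 80.3 with epoxomicin and Cd68 at 34.9 and 50.7 with DMSO and 37.8 and 47.8 with epoxomicin, and 0 of them changed. B cell markers did differ and are described below.

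The proteasome is the protease complex that degrades ubiquitin-tagged proteins in the cytosol and nucleus. Its catalytic beta subunits sit inside a barrel, and epoxomicin, an epoxyketone made by an actinomycete, binds the catalytic threonine of these subunits irreversibly. In T cells the proteasome removes short-lived regulators of activation. Among them are IκB, which holds NF-κB in the cytosol, and the alpha subunits of hypoxia-inducible factors (HIF), which prolyl hydroxylases mark for degradation when oxygen is present. Activated CD8+ T cells switch to high glucose uptake and glycolysis, divide rapidly and secrete cytokines and chemokines. Their antigen receptor drives early transcription factors of the EGR and NR4A families through calcium, calcineurin and NFAT and through MAP kinases.

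Of 13261 genes, 170 changed (1.28%), 96 of them higher with epoxomicin (0.724%) and 74 lower (0.558%). Counts of changed members in the lists and families below are to be read beside these shares. The changes were small: the median log2 fold change was 0.47 among the genes that rose and -0.48 among those that fell, 38 genes changed by at least 1.5-fold and 4 by at least 2-fold. Those beyond 2-fold were the chemokine gene Ccl9 on the higher side, and Igk-C, Anxa2 and Egln3 on the lower. In all 170 changed genes both epoxomicin arrays lay on one side of both DMSO arrays, as they did in 41.8% of all genes tested. With 2 arrays against 2, an exact permutation test of a single gene cannot go below a two-sided p of 0.333, so calls rest on the spread that the model pools over genes. The median over all genes was 0.00185, with 6740 genes above 0 and 6519 below. Counts of list members above or below 0 are to be read beside these. All lists were chosen with earlier results of these data known, so their counts describe them and are not independent evidence.

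**Figure D1:**
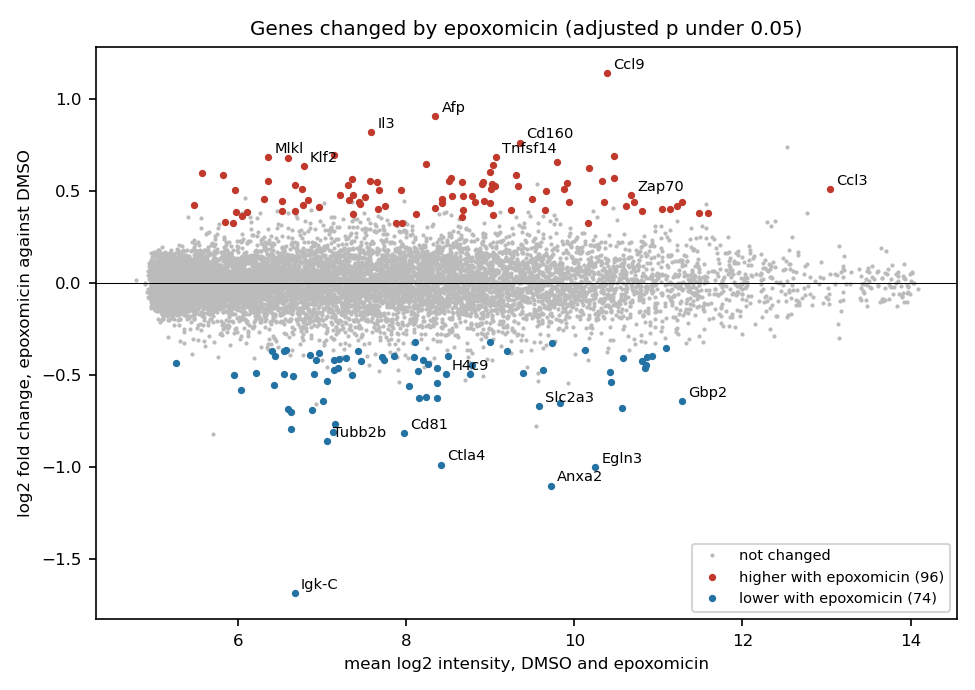
Log2 fold change of epoxomicin against DMSO (vertical axis) for every gene tested, against its mean log2 intensity in these groups (horizontal axis). Red points are the 96 genes that rose and blue points the 74 that fell, with some named. Ccl9 stands highest at 1.14 and Igk-C lowest at -1.69.

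Several secreted and membrane-bound messengers of activated T cells rose with epoxomicin. Of 13 chemokine genes measured 3 rose and 0 fell, and Ccl9, whose product attracts myeloid cells through CCR1, was at 869.6 and 919.7 with DMSO and 1973 and 2039 with epoxomicin (log2 change 1.14 ± 0.065, adjusted p = 0.000226). Ccl1, a ligand of CCR8, was at 628 and 774 with DMSO and 1011 and 1232 with epoxomicin (log2 change 0.66 ± 0.11, adjusted p = 0.0273). Ccl3, a chemokine released by cytotoxic cells, was already among the brightest probes, at 7077 and 7020.4 with DMSO and 10221 and 9918 with epoxomicin (log2 change 0.51 ± 0.073, adjusted p = 0.0114). In none of the 3 did an epoxomicin array reach down to a DMSO array. The groups overlapped in no changed gene, and 21.3% of all genes were higher on both epoxomicin arrays. Ccl4, at 15723 and 16288 with DMSO and 14839 and 16980 with epoxomicin, and Xcl1, at 12877 and 11126 with DMSO and 13489 and 13794 with epoxomicin, did not pass the test, and both lie near the top of the scale. Over all chemokine genes the median was 0.052. It was 0.013 without DMSO 1, 0.085 without epoxomicin 1 and 0.096 without epoxomicin 2, 0.118 with an offset of 16, 0.113 under the 2 strictest filters, and 0.090 without background correction or with probes averaged.

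Among 18 interleukin and colony-stimulating factor genes 1 rose: Il3, a growth factor for myeloid progenitors and mast cells, was at 148 and 130.2 with DMSO and 277 and 253 with epoxomicin (log2 change 0.82 ± 0.076, adjusted p = 0.00236). Il2, the T cell growth factor, was at 793 and 749 with DMSO and 946 and 992 with epoxomicin and did not pass (log2 change 0.32 ± 0.072, adjusted p = 0.0843). Nor did Csf2, which encodes GM-CSF, at 252 and 206 with DMSO and 317 and 266 with epoxomicin. Of the 18 members 12 were above the limit on both DMSO arrays, and the median of the family was 0.036. The gene of interferon gamma, Ifng, was at 4502 and 4643 with DMSO and 7754 and 7548 with epoxomicin, well apart, but the difference did not pass after adjustment (log2 change 0.74 ± 0.15, adjusted p = 0.0547). Its second probe read 4777 and 4697 with DMSO and 6587 and 6693 with epoxomicin.

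Of 12 TNF superfamily ligand genes 3 rose and 0 fell, with a median of 0.15. Tnf itself was at 406 and 417 with DMSO and 603 and 675 with epoxomicin (log2 change 0.60 ± 0.087, adjusted p = 0.012), and its further probe also passed. Tnfsf14 encodes LIGHT, which binds HVEM and the lymphotoxin beta receptor, and was at 387 and 448 with DMSO and 687 and 686 with epoxomicin (log2 change 0.69 ± 0.082, adjusted p = 0.00724). Tnfsf8, the ligand of CD30, was at 318 and 276 with DMSO and 467 and 428 with epoxomicin (log2 change 0.56 ± 0.081, adjusted p = 0.0122). Fasl, at 119 and 125 with DMSO and 157 and 153 with epoxomicin, and the RANK ligand gene Tnfsf11, at 167 and 183 with DMSO and 215 and 235 with epoxomicin, did not pass. Among 18 receptor genes of the superfamily 1 rose, the costimulatory receptor gene Cd27 (0.44), and the median was -0.047. Against E9, differences are given as epoxomicin minus E9. In the same fit 12.9% of all genes differed between epoxomicin and E9. In cells given E9 Ccl9 was at 155 and 158 (log2 difference 3.48 ± 0.065, adjusted p = 7.4e-09) and Ccl1 at 45.3 and 41.1 (log2 difference 4.05 ± 0.11, adjusted p = 6.32e-08), both below epoxomicin, and Il3, at 31.7 and 32.9, was not above background. Tnf, at 421 and 492, differed less (log2 difference 0.46 ± 0.087, adjusted p = 0.00665).

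Transcription factors that follow the antigen receptor were in part higher. Of 23 immediate early genes 4 rose and 0 fell, with a median of 0.054. This median was 0.0064 without epoxomicin 1, 0.12 without epoxomicin 2, 0.091 without DMSO 1 and 0.033 without DMSO 2. It was 0.115 with an offset of 16, 0.097 without background correction and 0.090 under the 2 strictest filters. Egr2 was at 1049.6 and 1056 with DMSO and 1588 and 1534 with epoxomicin (log2 change 0.56 ± 0.083, adjusted p = 0.0138) and Egr3 at 787 and 804 with DMSO and 1258 and 1093 with epoxomicin (log2 change 0.55 ± 0.077, adjusted p = 0.0114); both encode zinc finger factors that NFAT induces and that restrain activation. The orphan receptor gene Nr4a2 was at 161 and 162 with DMSO and 238 and 259 with epoxomicin (log2 change 0.55 ± 0.068, adjusted p = 0.00764), and Zfp36l1, an RNA-binding protein that speeds the decay of AU-rich messages, rose less (0.38). Egr1 (0.29, adjusted p = 0.126) and Fos (0.38, adjusted p = 0.0845) did not pass. Junb, at 571 and 638 with DMSO and 458 and 432 with epoxomicin, lay on the lower side and did not pass either (log2 change -0.42 ± 0.085, adjusted p = 0.0537). The calcineurin and NFAT genes themselves gave no call in 11 measured, with a median of 0.036.

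Some feedback regulators of MAP kinases and of the antigen receptor rose as well. 3 dual-specificity phosphatase genes of 16 measured rose and 0 fell. Dusp6, which acts on ERK, was at 516 and 545 with DMSO and 755 and 801 with epoxomicin (log2 change 0.53 ± 0.073, adjusted p = 0.0106), Dusp2, a nuclear phosphatase of lymphocytes, at 1475 and 1396 with DMSO and 1922 and 1995 with epoxomicin (log2 change 0.44 ± 0.066, adjusted p = 0.0144), and Dusp4, a further ERK and JNK phosphatase, at 348 and 362 with DMSO and 460.5 and 466 with epoxomicin (log2 change 0.36 ± 0.063, adjusted p = 0.0282). The remaining members had fold changes between -0.27 (Dusp1) and 0.088 (Dusp10), and the median of the family was 0.011. In the list of proximal receptor signalling 2 of 24 genes rose and 0 fell, and 19 lay above 0, with a median of 0.16. The CD8+ T cell markers, some of them in this list, had a median of 0.23, and their part in it was not tested. Zap70, the kinase that binds the phosphorylated receptor chains, was at 1398 and 1371 with DMSO and 1941 and 1931 with epoxomicin (log2 change 0.48 ± 0.065, adjusted p = 0.0105), and both of its further probes passed as well. Ptpn22, a phosphatase that dampens receptor signals, was at 1095 and 1151 with DMSO and 1487 and 1578 with epoxomicin (log2 change 0.44 ± 0.079, adjusted p = 0.0312). Prkcq (0.44, adjusted p = 0.0675), Cd3d (0.31, adjusted p = 0.065) and Lcp2 (0.41, adjusted p = 0.162) did not pass.

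Further signalling genes outside these lists also rose. They include the adaptor genes Sla (0.57), whose product SLAP lowers receptor levels, Stap1 (0.59), Lime1 (0.33) and Tespa1 (0.47), the last needed for receptor signalling during thymocyte selection. The pleckstrin gene Plek, a protein kinase C substrate of blood cells, was at 406 and 424 with DMSO and 683 and 641 with epoxomicin (log2 change 0.64 ± 0.066, adjusted p = 0.0036), and Ipcef1, a partner of cytohesins, at 108 and 104 with DMSO and 179 and 196 with epoxomicin (log2 change 0.70 ± 0.068, adjusted p = 0.00298). The MAP kinase kinase gene Map2k3 (0.39), Nfkbid (0.40), a nuclear IκB protein, Hivep3 (0.40), Zbtb32 (0.42), a repressor induced in activated lymphocytes, Hdac7 (0.39), Tle4 (0.47) and the kinase gene Sgk1 (0.45) rose too. For these 13 genes the SE ran from 0.062 to 0.10, with adjusted p from 0.00298 to 0.0463. Pou2af1, a coactivator of octamer factors known from B cells, rose from 153 and 182 to 235 and 262 (log2 change 0.51 ± 0.088, adjusted p = 0.0275), unlike the B cell genes described below. Klf2, which maintains lymphocyte recirculation, was at 80.7 and 86.7 with DMSO and 146 and 143 with epoxomicin (log2 change 0.64 ± 0.085, adjusted p = 0.00966), and it was the only KLF gene of 12 measured to rise, while Klf6 fell from 1694 and 1649.7 to 1159 and 1125 (log2 change -0.54 ± 0.08, adjusted p = 0.0138).

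Receptors at the cell surface moved in both directions. Of 11 inhibitory receptor genes 5 rose and 1 fell, with a median of 0.19. Filters that drop dim members gave medians of 0.39 and 0.41, and an offset of 16 gave 0.30. Cd160, a glycolipid-anchored ligand of HVEM, was at 488 and 504 with DMSO and 796 and 930.3 with epoxomicin (log2 change 0.76 ± 0.09, adjusted p = 0.00654). Vsir, which encodes VISTA, was at 237 and 234 with DMSO and 388 and 379 with epoxomicin (log2 change 0.65 ± 0.063, adjusted p = 0.00298). Lag3, a receptor for MHC class II, was at 434 and 394 with DMSO and 544 and 604 with epoxomicin (log2 change 0.45 ± 0.08, adjusted p = 0.0309), Btla, the other immunoglobulin-type partner of HVEM, at 462 and 410.2 with DMSO and 569 and 629 with epoxomicin (log2 change 0.44 ± 0.086, adjusted p = 0.0458), and Havcr2, which encodes TIM-3, at 82.3 and 72.2 with DMSO and 108 and 111 with epoxomicin (log2 change 0.39 ± 0.07, adjusted p = 0.0309). Ctla4, the competitor of CD28 for B7 ligands, went the other way, at 543 and 443 with DMSO and 252 and 218 with epoxomicin (log2 change -0.99 ± 0.10, adjusted p = 0.00338). No array of one group reached into the other for any of the 6. The same held for all 170 changed genes and for 41.8% of all genes tested. Pdcd1, at 43.1 and 44.6 with DMSO and 45.6 and 48.8 with epoxomicin, was close to background and did not pass.

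Other surface receptors that rose were Slamf1 (0.53), the self-ligand SLAM, Cxcr3 (0.43), the receptor for interferon-induced chemokines, and Nrp1 (0.56), a co-receptor for semaphorins and VEGF. With them rose Sema7a (0.55), a membrane-anchored semaphorin, and F2r (0.62), the thrombin receptor PAR1, which was at 964 and 888 with DMSO and 1532 and 1353 with epoxomicin. So did Gpr174 (0.53), a lysophosphatidylserine receptor, Adgre5 (0.50), which encodes CD97, Itm2a (0.51), Itga3 (0.33), Hcst (0.46), which encodes the signalling adaptor DAP10, and Rgs1 (0.42), which shortens signals of chemokine receptors. Lilrb4a was at 136 and 126 with DMSO and 209 and 203 with epoxomicin (log2 change 0.57 ± 0.07, adjusted p = 0.00746), and its neighbour in the annotation of chromosome 10, Lilr4b, at 57.1 and 54.1 with DMSO and 78.2 and 79.9 with epoxomicin (log2 change 0.37 ± 0.064, adjusted p = 0.0283). These near-identical inhibitory receptors may share signal on a probe. Over these 13 genes the SE ran from 0.064 to 0.10, with adjusted p from 0.00746 to 0.0458. Among 19 killer lectin-like receptor genes 0 passed in either direction, although 14 were higher on both epoxomicin arrays, where 21.3% of all genes were, and the median was 0.12. In the granule family 1 of 9 rose, the cathepsin W gene Ctsw (0.44), and perforin, Prf1, at 3387 and 2388 with DMSO and 2672 and 1918 with epoxomicin, did not pass. The probe for granzyme B was at background on all 6 arrays.

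**Figure D2:**
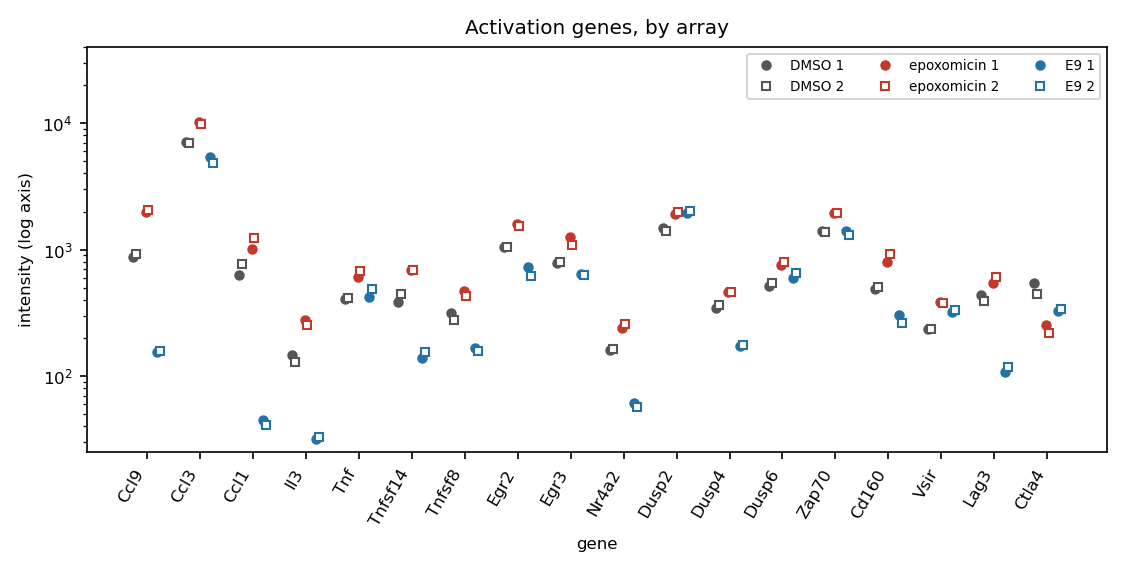
Intensity on each array (vertical log axis) of 18 genes of T cell activation and signalling, with DMSO in grey, epoxomicin in red and E9 in blue (circles replicate 1, squares replicate 2). Epoxomicin lies above DMSO in every gene shown but Ctla4, which is at 252 and 218 against 543 and 443. All genes shown are among the 170 that changed, and in none of those did the groups overlap.

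A mixed group of enzymes and transport genes rose as well. Afp, alpha-fetoprotein, was at 238 and 226 with DMSO and 454 and 460.4 with epoxomicin (log2 change 0.91 ± 0.073, adjusted p = 0.00161). Mlkl, the pore-forming effector of necroptosis, was at 58.1 and 62.1 with DMSO and 108 and 117 with epoxomicin (log2 change 0.69 ± 0.074, adjusted p = 0.00407), while Ripk3 and the other measured genes of that list, 11 in all, gave no further call. The second Mlkl probe was near background. Uchl1, a ubiquitin hydrolase best known from neurons, was near background with DMSO, at 33 and 35.9, and at 60.6 and 70.6 with epoxomicin (log2 change 0.60 ± 0.073, adjusted p = 0.00746). It was the 1 gene of 58 deubiquitinase genes that passed (1.72%), a share near the 1.28% of all genes. Srxn1, which reduces overoxidized peroxiredoxins, was at 47.3 and 37.1 with DMSO and 70.4 and 81.9 with epoxomicin (log2 change 0.59 ± 0.089, adjusted p = 0.0149), as 1 of 21 genes of the NRF2 and metallothionein list, whose median was 0.01. In lipid metabolism Bdh2 (0.57), a short-chain dehydrogenase, Acsl6 (0.56), an acyl-CoA synthetase, Sptlc1 (0.50), a subunit of the first enzyme of sphingolipid synthesis, and Gramd1b (0.46), a carrier of membrane cholesterol, rose, and so did the sulfotransferase gene Sult2b1 (0.46). Hsd11b1 (0.53), which regenerates active glucocorticoid, rose on its main probe and on 2 of 3 further probes. Akr1c18 (0.42), a steroid dehydrogenase, Prxl2a (0.42), Xdh (0.39), which encodes xanthine oxidoreductase, and the lysosomal sulfatase gene Arsb (0.48) complete this set. Over the 11 genes from Srxn1 to Arsb the SE ran from 0.064 to 0.089, with adjusted p from 0.00532 to 0.03.

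Further genes that rose run by size from Plgrkt (0.54) and Mmd (0.54) through Tmem126a (0.51), Rbpms2 (0.51) and Nt5dc1 (0.48) to Rnf135 (0.33) and Tmem209 (0.32). Among them were the CDC14 phosphatase genes Cdc14b (0.44) and Cdc14a (0.39), the transporters Slc10a3 (0.47) and Slc9b2 (0.45), and the genes Cdc42ep3 (0.44), Arhgdib (0.38) and Gmfg (0.41). Nsmaf (0.41) binds the TNF receptor, Psenen (0.33) is a gamma-secretase subunit, Crabp2 (0.39) carries retinoic acid and Pole4 (0.37) belongs to DNA polymerase epsilon. Sidt1 (0.44), Hectd2 (0.42), Tmem238 (0.40), Rell2 (0.37) and Pacsin1 (0.37), the thyroglobulin gene Tg (0.45), the receptor alpha segment Trav9n-4 (0.40) and a probe that the array calls Znfn1a3 (0.47) also rose. Across these 26 genes the SE ran from 0.062 to 0.089, with adjusted p from 0.00843 to 0.0444.

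Genes that hypoxia-inducible factors are known to drive lay on the lower side with epoxomicin, and part of them fell. Of 39 measured genes of the HIF list 9 fell and 0 rose, 37 of 39 had a log2 fold change below 0, and the median was -0.23 against 0.00185 over all genes. In 27 of them both epoxomicin arrays lay below both DMSO arrays (69.2%), where 20.5% of all genes did. The shift was not particular to epoxomicin: with E9 against DMSO the median of the list was -0.18, against -0.0061 over all genes. Both contrasts use the same DMSO arrays, so their medians are not independent, here and in the lists below. The list was drawn up knowing that some of its members fall, so these counts describe it and are not independent evidence. Of the list, Egln3 had the largest fold change. It encodes the oxygen-sensing prolyl hydroxylase PHD3 and was at 1765 and 1668 with DMSO and 1046 and 679.8 with epoxomicin (log2 change -1.002 ± 0.16, adjusted p = 0.0216). Ndrg1, a stress gene linked to membrane traffic, was at 346 and 372 with DMSO and 212 and 236 with epoxomicin (log2 change -0.63 ± 0.077, adjusted p = 0.00746), and Ddit4, which encodes the mTORC1 inhibitor REDD1, at 385 and 379 with DMSO and 229 and 251 with epoxomicin (log2 change -0.62 ± 0.068, adjusted p = 0.00449). P4ha2, a collagen prolyl hydroxylase subunit, was at 80.5 and 77.9 with DMSO and 50.2 and 46.9 with epoxomicin (log2 change -0.50 ± 0.071, adjusted p = 0.0114), and Ankrd37, a small ankyrin repeat protein, at 525 and 509 with DMSO and 396 and 349.5 with epoxomicin (log2 change -0.45 ± 0.076, adjusted p = 0.0259). Jmjd6, a JmjC-domain hydroxylase, fell least, from 2552 and 2381 to 1975 and 1873 (log2 change -0.35 ± 0.068, adjusted p = 0.043).

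The promoters of 4 of the fallen genes are printed because they show the short core motif, ACGTG or GCGTG, that HIF is known to bind. Each spans the annotated start in RefSeq on GRCm38.p6 and reads 5′ to 3′ on the gene's strand, with the core on either strand in capitals. Ankrd37 lies at chr8:45999801-46000100, minus strand, P4ha2 at chr11:54100674-54100973, plus strand, Slc2a1 at chr4:119108495-119108794, plus strand and Egln3 at chr12:54203825-54204124, minus strand.
Ankrd37: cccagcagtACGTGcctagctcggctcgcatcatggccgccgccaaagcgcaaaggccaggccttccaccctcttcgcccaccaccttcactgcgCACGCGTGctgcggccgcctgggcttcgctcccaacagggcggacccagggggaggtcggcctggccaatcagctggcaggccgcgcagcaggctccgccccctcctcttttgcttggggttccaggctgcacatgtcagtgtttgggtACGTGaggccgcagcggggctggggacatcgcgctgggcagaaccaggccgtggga
P4ha2: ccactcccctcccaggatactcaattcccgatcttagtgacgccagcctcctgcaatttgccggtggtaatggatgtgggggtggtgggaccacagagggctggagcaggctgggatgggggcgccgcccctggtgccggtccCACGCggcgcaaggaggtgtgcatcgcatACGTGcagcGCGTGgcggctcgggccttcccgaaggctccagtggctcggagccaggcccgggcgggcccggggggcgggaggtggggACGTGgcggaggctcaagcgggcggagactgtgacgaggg
Slc2a1: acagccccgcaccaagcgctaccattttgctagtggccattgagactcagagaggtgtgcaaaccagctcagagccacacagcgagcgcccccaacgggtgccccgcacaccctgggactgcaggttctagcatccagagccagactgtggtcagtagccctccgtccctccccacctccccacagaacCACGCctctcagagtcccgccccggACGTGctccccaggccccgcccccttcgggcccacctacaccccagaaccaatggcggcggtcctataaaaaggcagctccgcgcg
Egln3: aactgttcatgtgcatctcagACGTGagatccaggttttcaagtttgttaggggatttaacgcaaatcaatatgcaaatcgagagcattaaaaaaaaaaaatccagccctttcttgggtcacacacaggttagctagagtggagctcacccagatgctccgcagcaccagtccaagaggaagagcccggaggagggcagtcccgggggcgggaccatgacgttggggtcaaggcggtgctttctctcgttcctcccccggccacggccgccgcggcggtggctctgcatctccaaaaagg
Promoters were given for 7 of the 9 fallen HIF genes, and all 7 hold a core. So do 28 of 34 promoters of the measured list (82.4%), 66% of those of all genes that fell and 60.4% of those of all tested genes. With such a common motif a match is a description of the sequence and shows no binding.

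The HIF list overlaps the genes of sugar use. All 21 measured genes of glucose uptake and glycolysis had fold changes below 0, as had 49.2% of all genes. Of the 21, 3 fell, 15 were lower on both epoxomicin arrays (71.4%, against 20.5% of all genes), and the median was -0.22. The median with E9 against DMSO was -0.21. Slc2a3, the high-affinity glucose transporter GLUT3, was at 958 and 978 with DMSO and 665 and 539 with epoxomicin (log2 change -0.67 ± 0.10, adjusted p = 0.018), and Slc2a1, which encodes GLUT1, at 2122 and 2192 with DMSO and 1591 and 1529.7 with epoxomicin (log2 change -0.46 ± 0.083, adjusted p = 0.0315). Pfkp, a phosphofructokinase that commits sugar to glycolysis, was at 1119.9 and 1167 with DMSO and 739 and 698 with epoxomicin (log2 change -0.65 ± 0.11, adjusted p = 0.0233), and its second probe passed as well. Aldoc, at 171 and 147 with DMSO and 112 and 73.2 with epoxomicin, and Pfkm, at 211 and 239 with DMSO and 169 and 148 with epoxomicin, missed the threshold (adjusted p = 0.0547 and 0.0579). Of the brightest members, Ldha was at 11945 and 11444 with DMSO and 11044 and 10922 with epoxomicin (-0.09) and Tpi1 at 9944 and 9456 with DMSO and 8905 and 7754 with epoxomicin (-0.22), and neither passed. The 25 HIF genes outside the glycolysis list had a median of -0.25. From glycogen metabolism fell Ppp1r3b (-0.55), which targets a phosphatase to glycogen, and the phosphorylase gene Pygb (-0.32). Hilpda, a lipid droplet protein whose name records its induction by hypoxia, fell from 2109.6 and 2197 to 1712 and 1537 (log2 change -0.40 ± 0.08, adjusted p = 0.0494), and Cited2, an HIF target that competes with HIF for its coactivators, from 354 and 334 to 266 and 237 (log2 change -0.42 ± 0.075, adjusted p = 0.0312). Neither is in the list.

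In the HIF genes the second array of each group tended to be the lower one. In 34 of 39 HIF genes epoxomicin 2 was lower than epoxomicin 1, against 49.8% of all genes, and in 28 of 39 DMSO 2 was lower than DMSO 1, against 6551 of all 13261 genes. Between the epoxomicin arrays the gap was wide in Egln3 and in Bnip3l, at 989 and 637. What sets the arrays apart was not tested. Without epoxomicin 2 the median of the list was -0.13, with 33 of 39 below 0, and without epoxomicin 1 it was -0.29, with 38 of 39 below 0. For the glycolysis list the medians were -0.11 and -0.29. In that list epoxomicin 2 was lower than epoxomicin 1 in 20 of 21 genes, and DMSO 2 lower than DMSO 1 in 10. Vegfa, which encodes the angiogenic factor VEGF-A, was at 293 and 278 with DMSO and 225 and 175 with epoxomicin and did not pass (log2 change -0.47 ± 0.11, adjusted p = 0.0826). Hif1a, the oxygen-labile alpha subunit itself, was at 170.2 and 176 with DMSO and 174 and 189.6 with epoxomicin (log2 change 0.062 ± 0.07, adjusted p = 0.849), so its transcript gave no call.

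**Figure D3:**
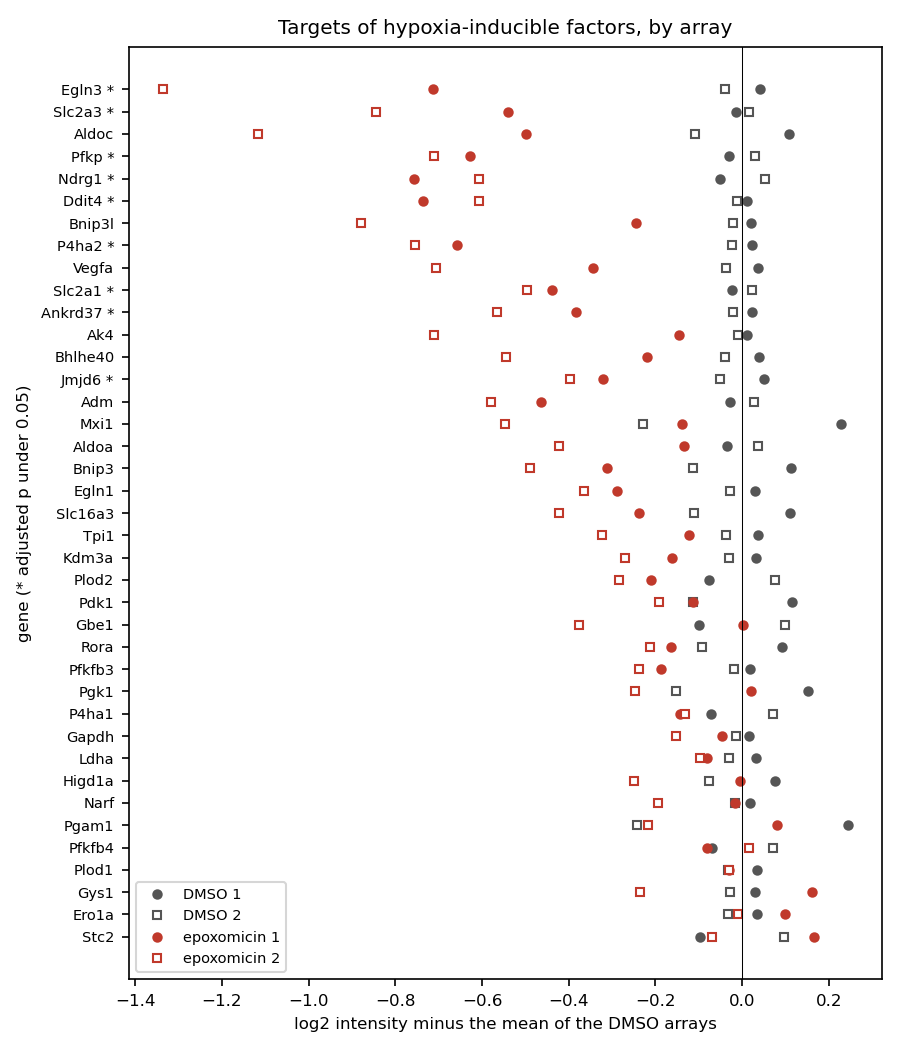
Log2 intensity on each DMSO (grey) and epoxomicin (red) array minus the mean of the DMSO arrays, without background correction, for the 39 measured HIF targets, sorted by fold change. Stars mark the 9 genes that fell. Open squares, replicate 2, lie furthest to the left with epoxomicin in most genes.

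Of 26 measured genes of amino acid supply and of the stress response governed by ATF4 4 fell and 0 rose, with 22 below 0 and a median of -0.13. The median with E9 against DMSO was 0.15. Chac1, which degrades glutathione, was at 197 and 193 with DMSO and 101 and 99.1 with epoxomicin (log2 change -0.81 ± 0.067, adjusted p = 0.00161), and Trib3, a pseudokinase that feeds back on ATF4, at 146 and 171 with DMSO and 96.5 and 80.1 with epoxomicin (log2 change -0.69 ± 0.093, adjusted p = 0.00966). Phgdh, the first enzyme of serine synthesis, was at 576 and 569 with DMSO and 451 and 456 with epoxomicin (log2 change -0.32 ± 0.062, adjusted p = 0.0444), and Ddit4, given above, stands in this list as well. Atf4 itself, at 3243 and 3259 with DMSO and 2616 and 2855 with epoxomicin, did not pass (log2 change -0.25 ± 0.072, adjusted p = 0.18). In cells given E9 the stress genes stood above the epoxomicin arrays, Chac1 at 285 and 263 (log2 difference -1.25 ± 0.067, adjusted p = 2.35e-06) and Trib3 at 514 and 483 (log2 difference -2.20 ± 0.093, adjusted p = 4.88e-07). 3 regulators of cap-dependent translation fell too: Eif4e3, a divergent cap-binding protein, was at 199 and 192 with DMSO and 102 and 106 with epoxomicin (log2 change -0.77 ± 0.063, adjusted p = 0.00161) and passed on a further probe. Eif4ebp1, the inhibitor of eIF4E that mTORC1 controls, was at 1706 and 1564 with DMSO and 1189 and 1130.2 with epoxomicin (log2 change -0.49 ± 0.074, adjusted p = 0.0149), and Mknk2, an eIF4E kinase, fell by 0.33 on the log2 scale.

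Genes of dividing cells lay slightly to the lower side, with few calls outside histone H4. There 6 of 13 measured H4 genes fell, 0 rose, all 13 were below 0, and the median was -0.37. The median with E9 against DMSO was -0.45. The H4 list was split from the histone family after the values were seen. Its counts, and the contrast with other histone genes, therefore only describe these values. Over the whole family of 58 histone genes 6 fell, and the median was -0.18. H4c9 was at 447 and 405 with DMSO and 290.5 and 298 with epoxomicin (log2 change -0.50 ± 0.07, adjusted p = 0.0114), H4c6 at 854 and 753 with DMSO and 549 and 577 with epoxomicin (log2 change -0.49 ± 0.081, adjusted p = 0.0224), and H4c1, the brightest, at 1334 and 1207 with DMSO and 1002 and 958 with epoxomicin (log2 change -0.37 ± 0.071, adjusted p = 0.0436). H4c12 (-0.46), H4c2 (-0.41) and H4c17 (-0.40) fell as well. The 6 that fell lie on chromosome 13. These genes encode the same protein and their messages are nearly alike, so a probe may read several of them, and the 6 calls are not 6 independent ones. The other 45 histone genes gave 0 calls, with a median of -0.12 and 29 of them lower on both epoxomicin arrays, against 20.5% of all genes. Most histone transcripts are made in S phase and lack a poly(A) tail.

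Of 33 mitosis genes 1 fell, the spindle assembly factor gene Tpx2, at 164 and 172 with DMSO and 121 and 117 with epoxomicin (log2 change -0.42 ± 0.072, adjusted p = 0.0262). 31 of the list were below 0, 23 were lower on both epoxomicin arrays (20.5% of all genes were), and the median was -0.17. With E9 against DMSO it was -0.43. In the list of DNA replication 0 of 34 fell and 0 rose, with a median of -0.11 and 18 lower on both arrays, again beside 20.5% of all genes. Its median with E9 against DMSO was -0.32. Some genes outside these lists, picked because they passed, act on chromatin or the centromere. Ezh2, the catalytic subunit of the Polycomb complex that methylates histone H3, was at 2128 and 2019.5 with DMSO and 1484 and 1589 with epoxomicin (log2 change -0.43 ± 0.075, adjusted p = 0.0286). A dimmer second probe of Ezh2, at 115 and 108.7 with DMSO and 122.2 and 104.8 with epoxomicin, showed no fall (log2 change 0.015). Hjurp, the chaperone of the centromeric histone, was at 919 and 959 with DMSO and 720 and 619.6 with epoxomicin (log2 change -0.48 ± 0.087, adjusted p = 0.0337). The centromere protein gene Cenpp (-0.42), the cell cycle gene Tcf19 (-0.44), Pcgf5 (-0.45), a Polycomb ring finger protein, Nsmce1 (-0.41), of the SMC5/6 complex, Sfi1 (-0.37), a centrosome protein, and Cul7 (-0.50), a ubiquitin ligase scaffold, fell too, with adjusted p from 0.0273 to 0.0444. Samhd1, which destroys deoxynucleotides, went from 517 and 517 to 338 and 382 (log2 change -0.49 ± 0.079, adjusted p = 0.0198), though its further probes did not pass.

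**Figure D4:**
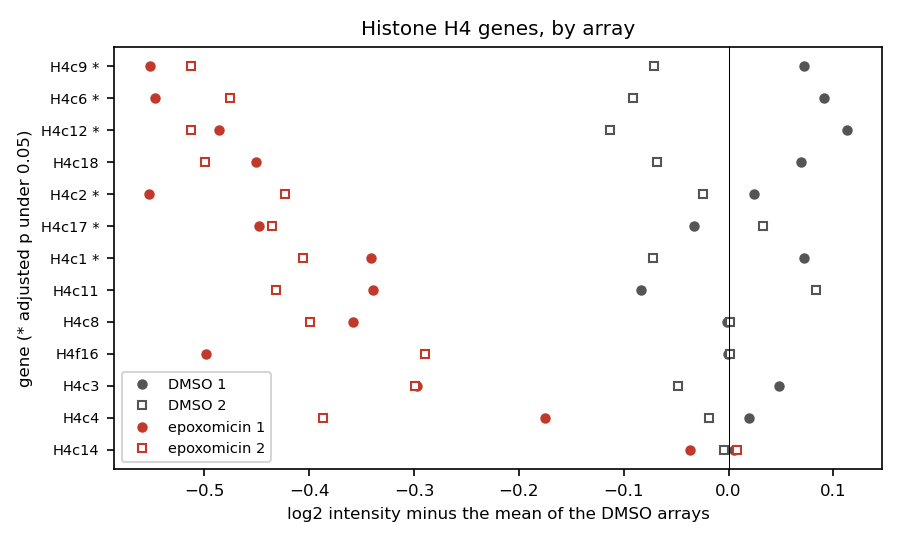
Log2 intensity on each DMSO (grey) and epoxomicin (red) array minus the mean of the DMSO arrays, without background correction, for 13 histone H4 genes. Stars mark the 6 that fell. The epoxomicin arrays lie to the left of the DMSO arrays in 12 of the 13, where 20.5% of all genes were lower on both. The list was made after the values were seen, and its members may share signal on a probe.

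Some interferon-inducible GTPases, which attack vacuoles of intracellular microbes, fell with epoxomicin. Of 12 measured, gathered by gene symbol, 4 fell and 0 rose, and the median was -0.30. A member that carries only a predicted-gene name would not be counted. With E9 against DMSO the median was 0.51. Gbp2 was at 3010.2 and 3224 with DMSO and 2074 and 1907 with epoxomicin (log2 change -0.64 ± 0.075, adjusted p = 0.00654), and a further probe of it passed. Gbp3 was at 416 and 388 with DMSO and 298 and 240.1 with epoxomicin (log2 change -0.54 ± 0.10, adjusted p = 0.0417), Gbp5 at 247 and 244 with DMSO and 185 and 174 with epoxomicin (log2 change -0.40 ± 0.064, adjusted p = 0.0184) and Irgm2 at 428 and 412 with DMSO and 329 and 297 with epoxomicin (log2 change -0.40 ± 0.076, adjusted p = 0.0415). Tgtp1 (-0.36, adjusted p = 0.0605) and Igtp (-0.31, adjusted p = 0.151) did not pass, and Irgm1, at 8538 and 8538 with DMSO and 8574 and 7793 with epoxomicin, hardly differed. The median without epoxomicin 2 was -0.19. Of 28 other interferon-stimulated genes 1 fell, the ADP-ribosyltransferase gene Parp14, at 336 and 343 with DMSO and 246 and 226 with epoxomicin (log2 change -0.48 ± 0.071, adjusted p = 0.0134), and the median was -0.043. Ifng itself, as given above, lay on the higher side without passing. Socs2, which a cytokine signal through STAT5 induces, was at 423 and 413 with DMSO and 283 and 242 with epoxomicin (log2 change -0.63 ± 0.083, adjusted p = 0.00966). It was the 1 gene of 11 in the joint list of SOCS and PIM genes to change. With E9, Gbp2 and Socs2 were above epoxomicin, Gbp2 at 5239.5 and 4875 (log2 difference -1.33 ± 0.075, adjusted p = 3.24e-06) and Socs2 at 842 and 921 (log2 difference -1.66 ± 0.083, adjusted p = 1.53e-06).

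Genes of cytoskeletal and membrane proteins were also among those that fell. Anxa2, a calcium-dependent membrane-binding annexin, was at 1284 and 1195 with DMSO and 674 and 469.8 with epoxomicin (log2 change -1.10 ± 0.14, adjusted p = 0.00887), while Anxa3 rose from 70.1 and 73.6 to 132 and 129 (log2 change 0.68 ± 0.072, adjusted p = 0.00407). They were the 2 of 8 annexin genes that changed. Vim, the intermediate filament protein of lymphocytes, was at 179.5 and 159 with DMSO and 104 and 94.2 with epoxomicin (log2 change -0.64 ± 0.089, adjusted p = 0.0106). Tubb2b, a beta-tubulin, was at 181 and 199 with DMSO and 95.2 and 91.3 with epoxomicin (log2 change -0.86 ± 0.074, adjusted p = 0.00176), though its further probes, mostly at background, did not pass, and 10 of 17 tubulin genes were lower on both epoxomicin arrays, where 20.5% of all genes were, with a median of -0.12. Cd81, a tetraspanin of the B cell co-receptor and of T cells, was at 340.3 and 346 with DMSO and 186 and 181 with epoxomicin (log2 change -0.82 ± 0.088, adjusted p = 0.00407), the 1 tetraspanin of 17 to change. Clic4 (-0.68), Ndrg2 (-0.70), Tax1bp3 (-0.48), Vav2 (-0.40), Triobp (-0.37), St8sia4 (-0.42) and Spsb1 (-0.49) fell with them. Clic4 is an intracellular chloride channel protein that passed on a further probe, Vav2 a guanine nucleotide exchange factor, St8sia4 a polysialyltransferase and Spsb1 an adaptor of a ubiquitin ligase. Across these 7 the SE ran from 0.066 to 0.10, with adjusted p from 0.00407 to 0.0468.

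Enzymes and other genes on the lower side included Scd2, a desaturase that makes monounsaturated fatty acids, at 177 and 156 with DMSO and 98 and 117 with epoxomicin (log2 change -0.53 ± 0.093, adjusted p = 0.0286). It was the 1 of 29 sterol and fatty acid synthesis genes to change, in a list with a median of -0.059. Further lipid genes were the phosphatidate phosphatase gene Plpp2 (-0.69), Pafah1b3 (-0.46), a subunit of an acetylhydrolase of platelet-activating factor, and Tlcd3a (-0.51). Ckb (-0.42) encodes brain-type creatine kinase, Il4i1 (-0.37) a secreted amino acid oxidase, and Chchd10 (-0.40) a mitochondrial protein that was at 2272 and 2213 with DMSO and 1678 and 1708 with epoxomicin. Niban1 (-0.39), Cercam (-0.41), Ogfrl1 (-0.36) and Pcdhgc5 (-0.40) fell as well. In this set of 11 the SE ran from 0.063 to 0.093, with adjusted p from 0.00654 to 0.0383. Finally, 8 of the 170 changed genes carry only clone or predicted-gene names, 4 higher and 4 lower, and are not named here.

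Part of the B cell transcripts fell with epoxomicin. Of 10 measured B cell markers, out of 16 listed, 5 fell and 0 rose, with a median of -0.25. That median was -0.46 under the 3 other filters, -0.43 with an offset of 16 and -0.38 without background correction. Their summed intensity was 772.6 and 836.2 with DMSO, 482.1 and 449.2 with epoxomicin and 702.8 and 821.9 with E9. The sum with E9 hides members that differ in direction, given below. The probe for the immunoglobulin kappa constant region, which the array calls Igk-C, was at 199 and 229 with DMSO and 49.1 and 48.1 with epoxomicin and at 242 and 378 with E9 (log2 change -1.69 ± 0.16, adjusted p = 0.00236). The MHC class II chain gene H2-Ab1 was at 125 and 155 with DMSO and 78.9 and 61.1 with epoxomicin (log2 change -0.79 ± 0.11, adjusted p = 0.00966), its invariant chain gene Cd74 at 80.5 and 93.5 with DMSO and 51.3 and 47.6 with epoxomicin (log2 change -0.58 ± 0.078, adjusted p = 0.00966) and Cd79b, which signals for the B cell receptor, at 116 and 117 with DMSO and 77.7 and 72.5 with epoxomicin (log2 change -0.50 ± 0.083, adjusted p = 0.0233). H2-Aa was at 52.9 and 45.7 with DMSO and 30.9 and 28.7 with epoxomicin, so below the limit with epoxomicin and at least 1.24-fold lower (adjusted p = 0.0484). With E9, Cd79b was at 72 and 57.8 and H2-Ab1 at 57.1 and 55.5, below both DMSO arrays as with epoxomicin. Cd74, at 96.7 and 88 with E9, and H2-Aa, at 43.2 and 54.2, lay about the DMSO values. Other defining B cell genes were at or near background throughout, Ms4a1, which encodes CD20, at 34.7 and 34.8 with DMSO and 33.5 and 32.6 with epoxomicin and Pax5 at 35.1 and 31.5 with DMSO and 30.7 and 30.5 with epoxomicin. Blk, Cr2 and Cd22 were not above the limit on 2 arrays. In bulk RNA, fewer cells of a type and less RNA per cell cannot be told apart. The part of these transcripts in the differences of other genes was not tested.

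The genes of the proteasome, the target of the compound, gave no call. None of 34 core and regulator subunit genes passed the test in limma, and their median was 0.0092. Of the 34, 6 had an unadjusted p under 0.05, as had 1501 of all 13261 genes. Psmb5, the subunit that epoxomicin binds most readily, was at 909 and 941 with DMSO and 1082 and 1054 with epoxomicin (log2 change 0.20 ± 0.065, adjusted p = 0.239). Psmb6 (0.13), Psmb7 (0.069) and the immunoproteasome genes Psmb8 (-0.17), Psmb9 (-0.19) and Psmb10 (0.047) did not pass either. Nor did any of 23 cytosolic and mitochondrial chaperone genes (median -0.025), of 21 genes of the unfolded protein response (median 0.12), of 24 p53 targets and cell cycle inhibitors (median 0.015) or of 17 BCL2 family genes (median 0.026). Among fate regulators of CD8+ T cells 0 of 31 passed, with Tbx21, which encodes T-bet, at 310 and 285 with DMSO and 266 and 243 with epoxomicin and Eomes at 866 and 758 with DMSO and 1042 and 996 with epoxomicin (adjusted p = 0.501 and 0.153). Myc was at 206 and 218 with DMSO and 202 and 203 with epoxomicin, Il7r, the IL-7 receptor, at 146 and 153 with DMSO and 186 and 169.9 with epoxomicin and the activation marker Cd44 at 748 and 875 with DMSO and 764 and 907 with epoxomicin, and none of them passed. A miss at this number of arrays does not show that a gene was unaffected.

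**Figure D5:**
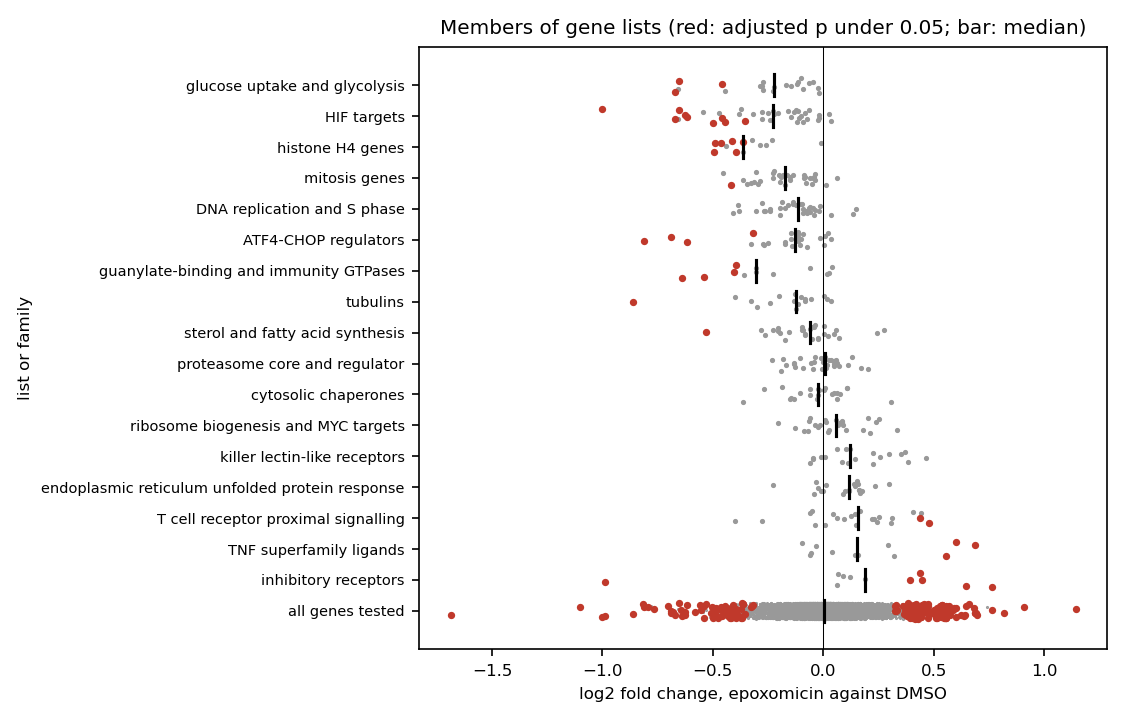
Log2 fold changes of epoxomicin against DMSO for the members of 17 gene lists and for all genes tested (horizontal axis), with the median as a black bar and genes that changed in red. Medians run from -0.37 for histone H4 to 0.19 for inhibitory receptors, and that of all genes lies at 0.0018.

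The calls rest on few arrays. When 1 of the 4 DMSO and epoxomicin arrays was left out, between 1 and 29 genes passed, namely 1 without epoxomicin 2, 12 without DMSO 1, 16 without DMSO 2 and 29 without epoxomicin 1, and none of the 170 turned its sign. Ccl9 passed in each of these 4 fits, and 28 of the 170 genes passed in at least 1. Of the 170 genes 77 had a further probe above background: in 20 a further probe passed in the same direction, in 0 in the opposite one, and in 12 a further probe had the opposite sign without passing.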

How the data were processed

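RNA was hybridised to mouse Illumina bead arrays, 1 array per sample. The intensities were deposited by the authors as 1 linear value per probe and array. All 6 columns hold the same sorted values, as quantile normalization leaves them. The scanner software and any earlier background step are not given in the sources used here. A second deposited table, whose 6 value columns match no sample label, was not used.

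The background was taken as the mode of all values, 30.8, and the limit of 34.7 as its upper one-sided 0.05 point, from the SD of 2.38 below the mode. Of 45281 probes 35784 had 1 gene symbol and 9497 none or several. Symbols were updated through RefSeq for 33385 probes, and 2399 kept the array's. Probes above the limit on at least 2 arrays were kept (19943), values were background-corrected by normexp with an offset of 50, and each gene stood by its brightest probe.

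All 6 arrays were fitted with limma 3.58.1 in R 4.3.3 (lmFit, eBayes, no block), and p-values of the epoxomicin contrasts were adjusted by Benjamini-Hochberg. The number of arrays, 2 per group, limits the precision. Figures and lists were made with Python 3.11.15, pandas 2.3.3 and matplotlib 3.10.9. The fit was tested on simulated data.

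The members and the gene lists were chosen with earlier results of these data known, and the histone H4 list was added after the values were seen. Every changed gene with an ordinary symbol could be named. Values on all arrays were given for the largest changes, the members that the lists turn on and a set of genes picked by name, of which 1 is not reported here. Other genes that did not pass were chosen for mention after their values were seen. Near-identical genes may share signal on a probe. The replicate numbers were not shown to pair the arrays: deviations from the group means correlated at 0.217 between DMSO and epoxomicin, -0.319 between DMSO and E9 and -0.204 between epoxomicin and E9.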

Additional observations from a re-analysis of the deposited data

How the results depend on the processing

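No alternative turned the sign of any of the 170 genes. Without the background correction 186 genes passed, with an offset of 16 129, without the filter 165, under the 3 other filters 152 to 169, with probes averaged per gene 152, and with a trended, robust prior 199. A test against a 1.2-fold change called 9 genes, 4 higher and 5 lower. With the DMSO and epoxomicin arrays alone 239 passed, 125 higher and 114 lower. With single arrays left out, the count ran from 1 (without epoxomicin 2) to 239, that of higher genes from 1 to 125 and that of lower genes from 0 to 114. It was 12 without DMSO 1, 16 without DMSO 2 and 29 without epoxomicin 1. These fits have fewer samples.

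With the replicate number as a block 90 genes passed, 55 higher and 35 lower. Chosen after seeing the data, the block with the E9 numbers crossed gave 416 genes, 211 higher and 205 lower, and the block on the DMSO and epoxomicin arrays alone gave 604, 298 higher and 306 lower. The cause was not tested, and the samples share only a number.

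The median of the DUSP phosphatases ran from -0.023 to 0.020 and turned below 0 without DMSO 1 (-0.00043) and without epoxomicin 1. That of the MHC class II genes ran from -0.055 (2 stricter filters) to 0.014 (without epoxomicin 1), and from -0.034 to 0.014 with single arrays left out. The medians of the 12 other lists followed kept their sign.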
